A study of Caenorhabditis elegans with 2 samples.

Results

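The Hox genes of Caenorhabditis elegans are the 6 homeobox genes that pattern the worm from head to tail. Described here are the peaks of the nuclear receptor NHR-6 in and around them. The genes were taken by name: ceh-13, lin-39, mab-5, egl-5, php-3 and nob-1, which are 6 of 19973 protein-coding genes on the nuclear chromosomes. For each gene, every peak with at least 1 bp inside the gene or within 10 kb on either side was listed. The gene set and its contrast of egl-5 with the other 5 genes were proposed from these same peak lists, so positions, widths, signal values and ranks of the peaks are given as a description and were not tested.

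The data come from chromatin immunoprecipitation and sequencing (ChIP-seq) of whole L4 larvae, the last larval stage, of strain OP90, genotype unc-119(ed3) III; wgIs90, in which wgIs90 is a transgene insertion that supplies NHR-6 fused to eGFP. There is 1 group with 2 biological replicates, the sexes are pooled and the age is unknown, so no condition is compared. Both replicates carry the same insertion and the same unc-119 allele. Cells of all tissues were mixed before immunoprecipitation, so a peak cannot be assigned to a cell type, and the sources used here do not give the promoter that drives the transgene. Peaks were available as a thresholded list of 2720 entries, a relaxed list of 30000 entries called on both replicates together (the pooled list), and relaxed lists of 26801 and 30000 entries for replicates 1 and 2. Every thresholded entry is also in the pooled list, where the lowest thresholded signal value was 27.52 and the highest value left out was 27.51. The pooled list is labelled as holding peaks and background, so an entry below the thresholded list, called a peak here, can be background. Each entry also carries a −log10 q-value, where a higher value means a smaller q. The signal value is the authors' own score of peak strength. It is compared here only within a list, and the read depth behind it is unknown. In the nhr-6 gene and its flanks 3 thresholded intervals were found, the strongest with a signal of 53.91 at rank 600.

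Hox proteins are transcription factors with a homeodomain, a DNA-binding fold whose last helix reads the bases of the target. In most animals they lie in clusters and specify position along the body axis, and their own transcription is held on or off by cofactors, Wnt signals and Polycomb-type chromatin proteins. In the worm ceh-13 is the labial-type gene of the anterior, lin-39 and mab-5 act in the mid-body, where lin-39 is needed for the vulva and mab-5 for posterior neuroblast migration and male tail fates, egl-5 is an Abdominal-B-type gene of the tail, and nob-1 and php-3 are a neighbouring pair of posterior genes needed in the embryo. NHR-6, an orphan nuclear receptor, represents the NR4A family in the worm and is known for its part in forming the spermatheca. NR4A receptors in mammals bind as monomers to AAAGGTCA.

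All 6 genes lie on chromosome III. In build ce11 lin-39 (WBGene00003024) spans chrIII:7528641-7536632 on the minus strand and ceh-13 (WBGene00000437) spans chrIII:7555660-7558041 on the plus strand, 19.027 kb apart. mab-5 (WBGene00003102) follows 218.793 kb further on at chrIII:7776835-7783454, minus strand. Another 30.919 kb on lies egl-5 (WBGene00001174), chrIII:7814374-7817141, plus strand. The posterior pair is 4257.076 kb away, with php-3 (WBGene00004024) at chrIII:12074218-12077556 and nob-1 (WBGene00003779) at chrIII:12077793-12084316, both minus strand and 236 bp apart. The windows of php-3 and nob-1 therefore share most of their peaks.

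The following bases, read from the ce11 genome on the plus strand, lie at the summits that carry the comparison. The first 3 reach 50 bp to each side of summits inside egl-5, where the strongest signal of the whole data set was found, and the others are the strongest peaks in the windows of lin-39, mab-5 and nob-1, limited to intergenic bases. Capitals mark a match of TTATNA on either strand in both introns of egl-5 and in the lin-39 window. In coding exon 4 they mark the 12 bases that encode a conserved stretch of the recognition helix of the homeodomain, and in the mab-5 and nob-1 windows, which hold no TTATNA, they mark the 11 bases centred on the summit. The summit in the 3′ UTR of egl-5 is described without its bases.
egl-5 intron 1, chrIII:7814881-7814981: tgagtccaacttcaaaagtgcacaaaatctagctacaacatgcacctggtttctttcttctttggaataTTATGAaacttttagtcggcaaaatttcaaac
egl-5 intron 3, chrIII:7815731-7815831: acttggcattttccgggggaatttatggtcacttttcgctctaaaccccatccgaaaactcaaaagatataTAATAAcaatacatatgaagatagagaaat
egl-5 coding exon 4, chrIII:7816099-7816199: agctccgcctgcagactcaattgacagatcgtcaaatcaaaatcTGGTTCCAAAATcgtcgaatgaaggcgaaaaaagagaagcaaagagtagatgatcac
lin-39 window, chrIII:7520846-7520908: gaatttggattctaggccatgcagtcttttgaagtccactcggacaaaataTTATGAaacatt
mab-5 window, chrIII:7770121-7770196: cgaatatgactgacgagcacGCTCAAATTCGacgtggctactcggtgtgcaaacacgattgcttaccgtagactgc
nob-1 window, chrIII:12086037-12086137: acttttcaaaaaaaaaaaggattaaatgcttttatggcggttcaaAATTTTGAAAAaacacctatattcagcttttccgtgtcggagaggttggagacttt
The summit base of coding exon 4 falls within the capitals, which start at position 7816143, while the intronic TTATNA matches lie to the right of the summit base.

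One interval covered nearly the whole egl-5 gene, and it was the strongest and widest of every list. In the thresholded and pooled lists it ran over chrIII:7814327-7816995, a width of 2669 bp. It was 2659 bp wide in replicate 1 and 2666 bp wide in replicate 2. Its left edge lay 47 bp before the annotated start of egl-5 in the pooled list, 42 bp before it in replicate 1 and 46 bp before it in replicate 2. Its right edge lay 146, 151 and 148 bp short of the annotated end in the same order, so both edges moved by 5 bp or less between lists and 94.7% of the gene was covered in the pooled list. The next widest intervals had 316 bp in the thresholded and pooled lists, 304 bp in replicate 1 and 320 bp in replicate 2. Of the 2717 distinct thresholded intervals 2511 had exactly 316 bp and 205 were narrower, so egl-5 was the one protein-coding gene whose span overlapped an interval wider than 316 bp.

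The interval was entered 4 times in the thresholded list, the pooled list and replicate 1, and 5 times in replicate 2, each time with its own summit, signal and rank. It was the only interval with several entries in any list. The strongest pooled entry had a signal of 1433, which is 7.20 times the next nuclear peak outside egl-5 (199.2) and 36.6 times the thresholded median of 39.1. In replicate 1 the strongest entry had a signal of 907.8 against 114.8 for the next nuclear peak outside egl-5, and in replicate 2 the strongest had 587.9 against 103.4. Mitochondrial peaks, which only the list of replicate 1 holds, came closer. They filled its ranks 4 to 14, with signals of 514.2 down to 119.1, and the next nuclear peak stood at rank 15. Below that nuclear peak, further mitochondrial peaks followed down to rank 18, with a signal of 96.05. The strongest entry of egl-5 thus had 7.91 and 5.68 times the signal of the next nuclear peak in replicates 1 and 2, while the weakest entry of each replicate, described below, lay under that peak. The 4 thresholded entries together held 3.09% of all signal in the thresholded list.

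The first summit from the left lay in intron 1, 557 bp into the gene. It had a pooled signal of 1302 at rank 2, 907.8 at rank 1 in replicate 1 and 413.6 at rank 2 in replicate 2. The replicates placed it 15 bp apart, at 7814924 and 7814909. This intron also holds the 90 bp annotated noncoding gene C08C3.10 on the other strand, and the summit lies to the right of it.

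The second summit lay in intron 3, 1407 bp into the gene and 850 bp from the first. Its pooled signal was 929.4, and it was 614.5 in replicate 1 and 346.7 in replicate 2, at rank 3 in each list. The replicates placed it 32 bp apart.

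The weakest of the 4 pooled summits lay in coding exon 4, where the homeodomain is encoded, with a signal of 258.8 at rank 4. The pooled summit at 7816149 and the replicate 2 summit at 7816148 fell within 1 bp of the middle of the capitals shown in the exon sequence. Replicate 1 had its exon 4 summit 124 bp away, at 7816024, with a signal of 94.55 at rank 19, or rank 5 among nuclear peaks, whereas replicate 2 had 216.9 at rank 4. Of the 4 summits found in both replicates it was the one placed farthest apart, and it reached 10.4% of the strongest entry in replicate 1 and 36.9% in replicate 2.

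The strongest pooled summit lay in the 3′ UTR, 2323 bp into the gene. It had a signal of 847.6 at rank 2 in replicate 1 and 587.9 at rank 1 in replicate 2, and the replicates placed it 9 bp apart. Replicate 2 alone had a further summit, at 7815108 in coding exon 2, with a signal of 72.9 at rank 20. Introns make up 43.4% of the gene, the 3′ UTR 28.9%, coding exons 24.2% and the 5′ UTR 3.50%, and each class but the 5′ UTR held a pooled summit.

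**Figure D1:**
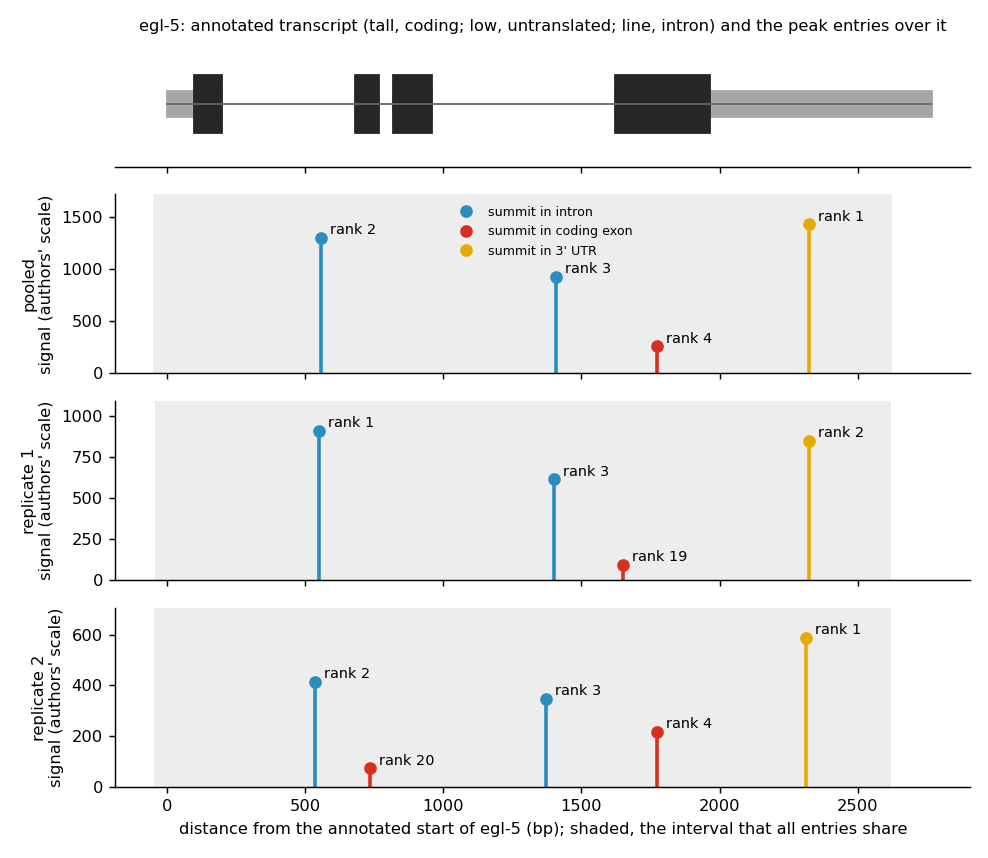
Peak entries over egl-5. The top track shows the annotated transcript; below it each stem is 1 entry of the pooled, replicate 1 or replicate 2 list, at its summit's distance in bp from the start of the gene (x) and with its signal on the authors' scale (y). The intronic and 3′ UTR summits fall at nearly the same places in all 3 lists, with pooled signals of 1302, 929.4 and 1433, while the exon 4 summit is low and moves by 124 bp between replicates.

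The deposited lists in the older build ce10 hold the same feature. Its width there was 2671 bp in the thresholded list, 2655 bp in replicate 1 and 2664 bp in replicate 2, with top signals of 1414, 876.6 and 595.5. The offsets of the 4 thresholded summits from the interval's left edge were 603, 1454, 1822 and 2371 bp in ce10 and 604, 1454, 1822 and 2370 bp in ce11. The weakest entries of the replicates moved in rank. The extra summit of replicate 2 had a signal of 22.24 at rank 1140 in ce10, against 72.9 at rank 20 in ce11, and the exon 4 summit of replicate 1 had 117.7 at rank 14 in ce10, against 94.55 at rank 19 in ce11.

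Beside this interval the rest of the egl-5 neighbourhood was low. The nearest pooled peak to the left was 12655 bp away with a signal of 4.919, and the nearest to the right was 2011 bp away with 7.513. In replicate 1 the nearest neighbours had signals of 2.535 and 2.213, at distances of 1443 and 1757 bp. In replicate 2 they had 3.573 and 6.063, at 4912 and 7293 bp. These nearest neighbours on both sides thus stood at ranks between 10830 and 25699. A stronger peak of replicate 1, overlapping its left neighbour, had a signal of 6.17 at rank 9376, 1852 bp upstream of the gene. The window held 5 more pooled peaks, all downstream, of which the strongest (14.04 at rank 7194) lay 7201 bp past the gene. Of these 5, 3 had egl-45, which encodes a translation initiation factor subunit, at the summit. The windows of egl-5 and egl-45 are the only ones among protein-coding genes that hold the wide interval.

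The wide interval consists of unique sequence. All 2634 stretches of 36 bp in it occur once in the genome, a share of 100%. The shares were also 100% for ceh-13 and lin-39, 98.6% for mab-5, 97.2% for nob-1 and 90.1% for php-3. The sources used here do not give the read length of the study.

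Among the other 5 Hox genes 1 thresholded interval was found, in the window of lin-39, and it lay nearer to another gene. Thus 2 of 6 Hox genes had a thresholded interval in the gene plus 10 kb, against 44.7% of all protein-coding genes. With a flank of 5 kb, or counting only intervals whose nearest annotated 5′ end belongs to the Hox gene, the number was 1, egl-5. At 5 kb 6231 of the 19973 protein-coding genes had a thresholded interval. For the count by nearest 5′ end no share over all genes is given here. None of the 6 had a thresholded summit in its promoter window, defined here as the 1000 bp before and the 200 bp after the annotated 5′ end, against 10.5% of all protein-coding genes. A thresholded summit inside the gene was found for 1 of 6, egl-5, against 3.08% of all. These shares were not compared by a test, since 6 genes chosen with the result known cannot serve as a sample.

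**Figure D2:**
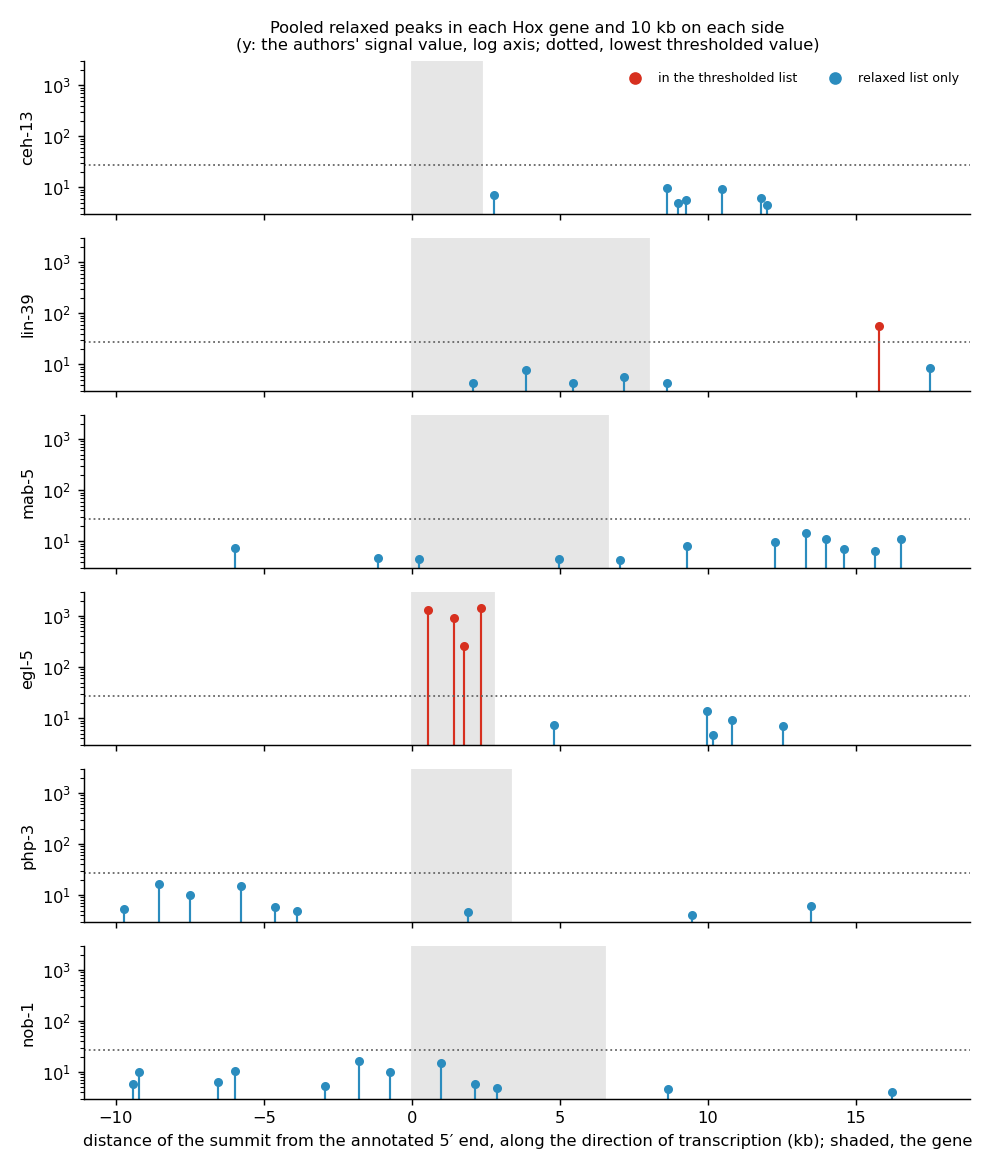
Pooled peaks around the 6 Hox genes. Each stem is 1 entry, at the distance of its summit from the annotated 5′ end in kb along the direction of transcription (x) and with its signal on a log axis (y); grey marks the gene and the dotted line the lowest thresholded value, 27.52. The egl-5 entries stand at 258.8 to 1433 inside the gene, 1 entry past the 3′ end of lin-39 stands at 57.27, and all others lie below the line.

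ceh-13, the anterior gene, had 7 pooled peaks in its window and none in the gene itself. The closest had a signal of 7.140 at rank 17175 and lay 379 bp past the 3′ end. It had a counterpart in replicate 2 (4.219 at rank 17847) and none in replicate 1. The other 6 lay 6233 to 9597 bp past the gene, over or beside lgc-12, ttr-8, ttr-32 and R13A5.7. The strongest of these had a signal of 9.769 at rank 11613, in a coding exon of lgc-12, with ranks 10375 and 16048 in the replicates. Of all genes 21.6% had either a weaker strongest pooled peak than ceh-13 or no pooled peak in the window. Upstream of ceh-13 no list had a peak in the window. In replicate 1 a peak of 2.200 at rank 25413 lay in the 3′ UTR.

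lin-39, the mid-body gene that the vulval precursor cells require, had 7 pooled peaks. The thresholded one lay at chrIII:7520700-7521015 with a signal of 57.27 at rank 478. Its signal was 22.20 at rank 1210 in replicate 1 and 29.13 at rank 579 in replicate 2, so it was among the 2720 strongest in each. Its summit was intergenic, 7783 bp past the 3′ end of lin-39 and 13 bp upstream of the 5′ end of cux-7, whose first bases border the printed sequence. The genes C07H6.2 and lig-4 also have this summit in their promoter windows. Inside lin-39 there were 4 pooled peaks, with signals of 4.252 to 7.643 and −log10 q-values of 0.199 to 0.915. The strongest of them, in a coding exon, had 9.736 at rank 5017 in replicate 1 and no counterpart in replicate 2. A second coding exon peak (4.342) was likewise met by replicate 1 alone, and the peaks in introns (5.747 and 4.252) by replicate 2 alone. No pooled peak of lin-39 lay upstream of the gene, but replicate 1 had one of 2.775 at rank 21656, 2192 bp upstream. Replicate 1 also had a peak of 4.633 at rank 13330 in the 3′ UTR.

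mab-5, which acts in the posterior body and male tail, had 12 pooled peaks, of which 2 lay inside the gene. These had signals of 4.447 in a coding exon and 4.522 in an intron, 252 bp from the 5′ end, and neither had a counterpart in a replicate. Their −log10 q-values were 0.228 and 0.24, against 3.91 for the thresholded peak of the lin-39 window. Upstream were peaks of 4.644 and 7.449, at 1141 and 5958 bp, each met by replicate 1 alone. The strongest peak of the window had a signal of 14.50 at rank 6901, 6689 bp past the gene and 26 bp upstream of the 5′ end of snu-23. It had 18.29 at rank 1781 in replicate 2 and no overlapping peak in replicate 1. In replicate 2 alone it would therefore rank among the 2720 strongest, which makes mab-5 the one Hox window whose standing differs between replicates at that depth of list.

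php-3 and nob-1, the posterior pair, had 9 and 12 pooled peaks, 8 of them shared. The strongest lay upstream of nob-1. It had a signal of 16.79 at rank 5699, 1771 bp from the 5′ end of nob-1, with ranks 4955 in replicate 1 and 18317 in replicate 2. The next, with 15.22 at rank 6501, lay in an intron of nob-1, 997 bp from the 5′ end, with ranks 4101 and 20188. A peak 744 bp upstream of nob-1, inside its promoter window, had 10.01 at rank 11244, with ranks 14177 and 11642. All 3 were found in both replicates, the first 2 much higher in the list of replicate 1. Further upstream, 4 peaks between 5980 and 9406 bp had signals of 5.739 to 10.56, each met by 1 replicate. At the peaks of 16.79 and 15.22 the −log10 q-values were 3.02 and 2.5. php-3 itself held 1 pooled peak, in a coding exon (4.592 at rank 27374, −log10 q-value 0.25), with a counterpart in replicate 1. None of these signals reached the lowest thresholded value of 27.52.

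**Figure D3:**
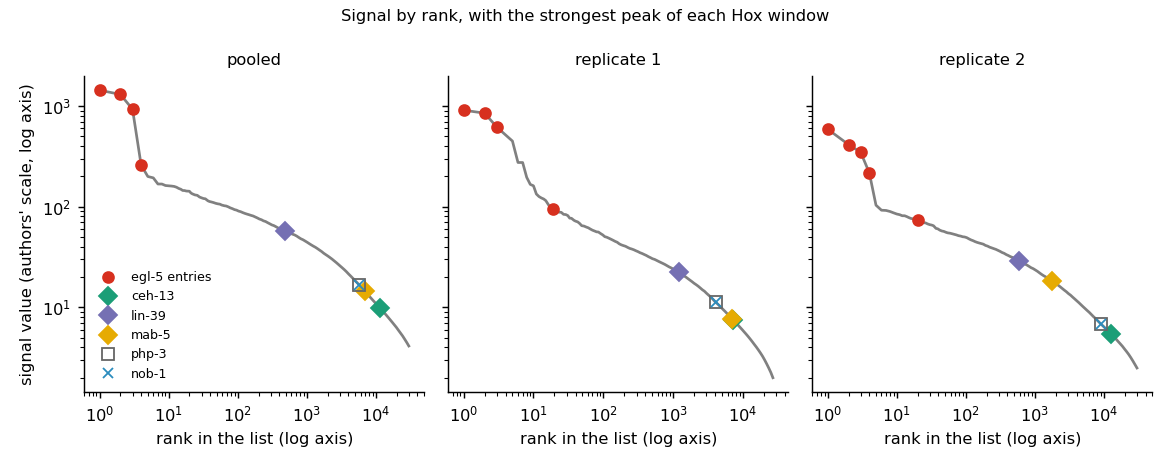
Signal on the authors' scale (y, log axis) against rank (x, log axis) for the pooled, replicate 1 and replicate 2 lists; grey lines are the lists and symbols are the egl-5 entries and the strongest peak in each of the other Hox windows. The egl-5 entries hold ranks 1 to 4 of the pooled list and ranks 1 to 3 of each replicate, with 1 entry at rank 19 in replicate 1 and, in replicate 2, entries at ranks 4 and 20; lin-39 stands at ranks 478, 1210 and 579, and mab-5 moves up to rank 1781 in replicate 2.

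Taking each interval once, the 6 windows held 45 pooled intervals, 34 in replicate 1 and 35 in replicate 2. Of the 45 pooled intervals 6 belonged to egl-5 and 39 to the other genes. By summit, 19 were intergenic, 12 in coding exons, 9 in introns and 5 in 3′ UTRs. A summit inside a Hox gene was found for 11, and the nearest annotated 5′ end was that of a Hox gene for 21 and of another gene for 24. The matching shares over all pooled summits are not given here, so these counts are not read as a trait of the Hox windows. Apart from the egl-5 and lin-39 peaks above, 43 intervals lay below the thresholded list, with signals of 4.167 to 16.79 and a median of 6.49. The 10 of these inside a Hox gene had a median of 4.75. The whole pooled list had a median of 7.98, but it includes the thresholded entries, which these 10 by choice do not.

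Of these 43 weaker intervals 13 (30.2%) overlapped a peak in both replicates, against 34.6% of all pooled intervals outside the thresholded list. Another 11 overlapped replicate 1 alone, 14 replicate 2 alone and 5 neither (11.6%, against 14.3% of all pooled intervals outside the thresholded list). By window, 4 of 7 were in both replicates for ceh-13, 2 of 7 for lin-39, 3 of 12 for mab-5, 2 of 6 for egl-5, 4 of 9 for php-3 and 4 of 12 for nob-1, the strong egl-5 and lin-39 intervals included. Over all pooled intervals, thresholded ones included, 40.4% were in both replicates. Whether peaks met by 1 replicate differ in strength from those met by both was not tested.

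**Figure D4:**
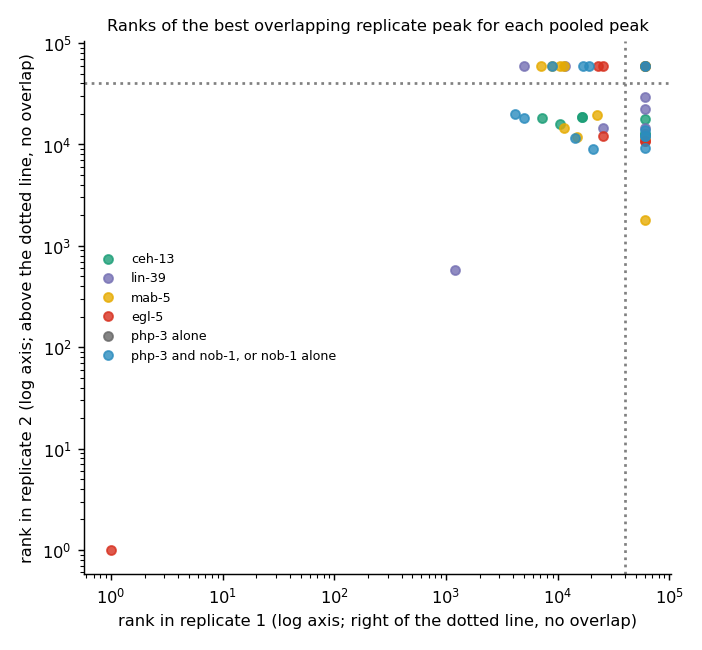
Each point is 1 of the 45 pooled intervals in the Hox windows, at the rank of its best overlapping peak in replicate 1 (x) and replicate 2 (y), both log axes; points beyond a dotted line have no overlapping peak in that replicate. The egl-5 interval is at rank 1 in both and the lin-39 interval at 1210 and 579, while 13 of the 43 others have a rank in both replicates.

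The number of peaks around egl-5 was ordinary. Per 10 kb of gene plus flanks, egl-5 had 2.64 pooled intervals, against a median of 2.75 over all protein-coding genes. The densities were 2.50 for lin-39, 3.13 for ceh-13, 3.86 for php-3, 4.51 for mab-5 and 4.52 for nob-1. In replicate 1 egl-5 had 2.64 and in replicate 2 it had 1.76, against medians of 2.42 and 2.84. The 6 pooled densities thus lay between 2.50 and 4.52, and egl-5 stood above the other 5 in the signal and width of 1 interval.

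**Figure D5:**
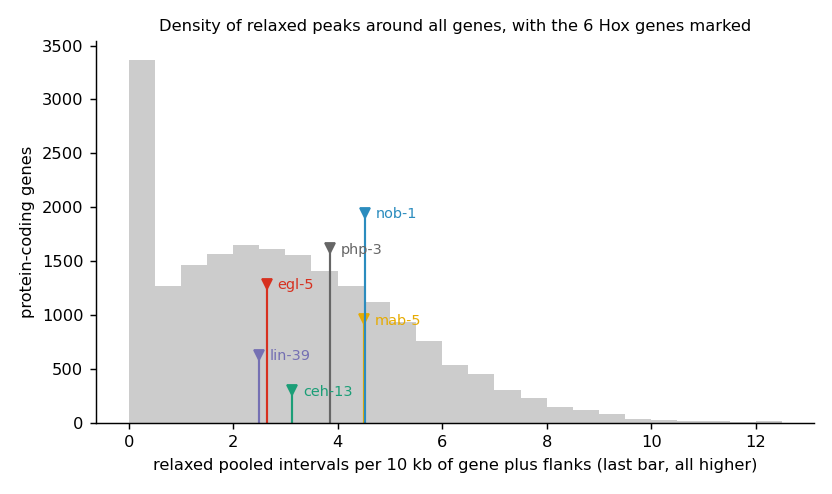
Pooled intervals per 10 kb of gene plus flanks (x) over 19973 protein-coding genes, as a histogram of the number of genes (y), with the 6 Hox genes marked by coloured lines whose heights carry no value. The Hox genes lie between 2.50 and 4.52, on both sides of the median of 2.75.

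The egl-5 summits had a lower mean GC content than the thresholded summits, by about the spread among those summits. Over the summit and 50 bp on each side the GC content was 34.7% at the intron 1, intron 3 and 3′ UTR summits and 42.6% at the exon 4 summit, a mean of 36.7% ± 3.95 (SD over 4 summits of 1 interval). The mean over thresholded summits was 45.3% ± 7.88 (SD, 2720 summits) and over pooled intervals 38.4% ± 8.95 (SD, 29997 intervals). A summit at 34.7% was above 8.12% of the thresholded summits and the exon 4 summit at 42.6% was above 34.3% of them. This difference was not tested, since the 4 summits belong to 1 interval. The 43 weaker Hox intervals had a mean of 37.4% ± 9.40 (SD), close to the pooled value. The whole egl-5 interval had a GC content of 34.9%, while the ceh-13 gene, which holds no pooled peak, had 34.8%.

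Motifs were counted by exact match on both strands in the same bases. The NR4A site AAAGGTCA and its core AGGTCA were in none of the 4 egl-5 summits and none of the 43 weaker ones, and neither occurred anywhere in the 2669 bp interval. They are uncommon at the peaks in general. AGGTCA, which is part of AAAGGTCA, was found at 3.71% of thresholded and 3.09% of pooled summits, and AAAGGTCA at 0.735% and 0.51%. GAGAGA, present at 27.3% of thresholded and 11.8% of pooled summits, was at none of the egl-5 summits and at 4 of the 43. TGATNNAT, a composite site of Hox proteins and their Pbx-type cofactors, was at none of the 4 and at 3 of the 43. It was at 5.33% of thresholded and 7.47% of pooled summits. TGANTCA, the site of AP-1 factors, was at none of the 4 and at 1 of the 43. It was at 7.24% of thresholded and 4.29% of pooled summits. TTATNA, with the core that Abdominal-B-type Hox proteins prefer, was at the intron 1 and intron 3 summits of egl-5 and at 11 of the 43, against 26.4% of pooled and 17.4% of thresholded summits. It occurred 19 times in the whole interval and 15 times in ceh-13, which has a length of 2382 bp. A match describes these letters only and shows no binding by any factor.

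Genes that act with the Hox genes were examined as a list of 32, chosen from textbook knowledge while earlier results of these data were known. A thresholded summit in the promoter window was found for 10 of 32 genes (31.2%), against the 10.5% of all genes given above, and an interval in the gene plus 10 kb for 20 (62.5%), against 44.7%. All 10 genes belonged to the group of 14 chromatin regulators (71.4%), and 1 of them, sor-1, had 2 such summits. The Pbx- and Meis-type cofactors (ceh-20, ceh-40, ceh-60, unc-62 and psa-3) had 0 of 5, the upstream factors and Wnt genes 0 of 8 and the target genes 0 of 5. With 10.5% of all genes as the background, 0 of 5 or 0 of 8 is read no further. An interval in the gene plus 10 kb was found for 4 of 5 cofactors (80.0%), 13 of 14 chromatin regulators (92.9%), 2 of 8 upstream factors and Wnt genes (25.0%) and 1 of 5 targets.

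Among Polycomb-type regulators, which keep Hox genes silent outside their domains, mes-2, a histone H3 methyltransferase, had a promoter signal of 51.78 at rank 685, with ranks 1023 and 996 in the replicates. Its complex partner mes-6 had 29.79 at rank 2366, with lower ranks of 5004 and 3215 in the replicates. The repressors of Hox transcription sop-2, sor-1 and sor-3 had 36.85, 49.21 (the stronger of the sor-1 summits) and 57.95, at ranks 1545, 774 and 464. In the same order their ranks were 1000, 1094 and 773 in replicate 1 and 2776, 347 and 241 in replicate 2. spat-3, a Ring-type protein, had 41.12 at rank 1195, with its summit in a noncoding gene and ranks 4954 and 439 in the replicates, the widest split of the 10. On the activating side lin-49 and lin-59, which maintain Hox expression, had 53.17 and 42.68 at ranks 626 and 1110. Their ranks were 338 and 581 in replicate 1 and 1621 and 706 in replicate 2. egl-27, an MTA-type factor, had 31.95, and utx-1, a histone demethylase, had 30.93. The replicate ranks were 1550 and 3797 for egl-27 and 1911 and 3840 for utx-1. mes-3, mig-32, ash-2 and jmjd-3.1 of the same group had no thresholded promoter summit. The strongest promoter summit of each of the 10 genes lay 129 bp (mes-2) to 987 bp (egl-27) upstream of the annotated 5′ end. The position of the weaker sor-1 summit is not given here. The highest promoter signal of the list, 57.95, compares with 1433 at egl-5.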

How the data were processed

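ChIP-seq peak lists of 1 group with 2 biological replicates, numbered in the labels, were analysed. Per the deposited text listings, the authors called relaxed peaks for each replicate and for both together against a control alignment. A reproducibility threshold (irreproducible discovery rate, IDR) then gave the thresholded list, and all lists exist for ce10 and ce11. The sources used here name no aligner, peak caller, setting or read depth. Signal tracks and the control library are not analysed here. Each deposited entry carries 3 values, namely a signal on the authors' own scale, a summit offset and a −log10 q-value. The q-values were not used to rank entries.

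Gene models were those of Ensembl release 115 for WBcel235, which is ce11, and bases from the RefSeq genome of that build. Every ce11 peak fits its chromosome lengths, and ce10 coordinates were never converted. Starts were made 1-based, entries with the same start and end counted as 1 interval, and rank is by signal within a list. Where features overlap, a summit was given to 1 class. Replicate support means an overlap of 1 bp. The members, motifs and pathway list were chosen with earlier results of these data known, and no p-value was computed. Named genes are the Hox genes, those at or nearest to a named peak, those with the widest interval and the pathway genes; the neighbours of weaker peaks, and pathway genes without a promoter peak, were named after their values were seen. The counting was tested on simulated data. Python 3.11.15, numpy 2.4.6, pandas 2.3.3 and matplotlib 3.10.9 were used. Alternatives changed the flank, the overlap rule, the number of peaks and the replicate.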

Additional observations from a re-analysis of the deposited data

How the results depend on the processing

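The strongest egl-5 entry held rank 1 in each replicate alone and with mitochondrial peaks left out, and the thresholded interval of egl-5 was found at every flank. Leaving out mitochondrial peaks cannot lower an entry at rank 1, and the interval overlaps the gene itself. Neither the mitochondrial setting nor the flank could therefore change these results. With a flank of 5 kb the other 5 genes had 0 thresholded intervals in place of 1, 1 Hox gene in place of 2 had one, and the egl-5 window held 2 relaxed intervals in place of 6. With 2 kb these values were 0, 1 and 2. In place of 8931 protein-coding genes, 6231 had a thresholded interval with 5 kb and 4100 with 2 kb. The strongest 1360 thresholded entries gave 5461 genes. Leaving out a replicate meant taking the strongest relaxed peaks of the other one, with no reproducibility threshold. It gave 1 to 2 intervals in the windows of the other 5 genes, the higher value without replicate 1, from the mab-5 window. Without replicate 1, 3 Hox genes and 8724 protein-coding genes had an interval, and without replicate 2 these numbers were 2 and 8675. Counting each entry gave 4 in place of 1 for egl-5. Counting only intervals whose nearest 5′ end is that of the Hox gene, an alternative chosen after seeing the data, gave 0 for the other 5 genes and 1 Hox gene. No paired analysis was possible because there is 1 group. Depth is unknown and the lists give nearly fixed widths, so the error of a single weak peak could not be stated, and the 2 replicates share 1 strain and 1 insertion.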
